A study of Mus musculus with 7 samples.

Results

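Serpins are a family of proteins that mostly inhibit proteases, and 27 of their genes were described here in mouse epidermis. They are all rows of the deposited table, 27 of 7091, whose gene symbol begins with Serpin. GENCODE M21 annotates 68 mouse Serpin genes, so the table held 39.7% of them, and the others were not analysed here. The table lists genes that had already passed the authors' own test on the same libraries, so a gene that passes again below is not independent evidence. Of the 27 members, 24 are annotated as protein coding and 3 as pseudogenes (Serpina3d-ps, Serpina3e-ps and Serpina3h).

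RNA was sequenced in bulk from epidermis separated from telogen skin of 7 mice. The 4 KA mice had the genotype K14-CreERT;ABCA12-cKO, in which the keratin 14 promoter of basal keratinocytes drives a recombinase that tamoxifen activates. The 3 controls carried the same conditional allele, written ABCA12-c/c, and no CreERT, so the presence of an active recombinase cannot be told apart from the deletion. All 7 mice were given tamoxifen at 8 weeks of age, with 1 mg for each 40 g of weight daily for 3 days, and were sampled 2 weeks later. Controls 1 and 3, KA 3 and KA 4 were female. Control 2, KA 1 and KA 2 were male. The row of Abca12, a lipid transporter of keratinocytes, was not analysed here, so the genotypes stand as labelled.

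A serpin is cut by its protease at an exposed stretch, the reactive centre loop. The cut loop then inserts into the body of the serpin, and the bound enzyme is disabled. The residues of that loop decide which protease is trapped. Some family members have lost this activity and serve as hormones, chaperones or matrix proteins. In mouse the family grew by local duplication, so that most members sit in 3 gene clusters. Serpins of clade B stay inside cells and are abundant in stratified epithelia and leukocytes. Serpins of clade A are mostly secreted, and the human gene SERPINA3 has a whole set of mouse counterparts. In epidermis, serpins counter the proteases that shed corneocytes and those that leukocytes bring in.

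The loop that proteases read was compared among the duplicates. Below is the coding sequence of the loop in the members of the Serpina3 and Serpinb3 groups that the results turn on, read from GENCODE M21 transcripts in the 5′ to 3′ direction. Lower case marks the 10 codons of the hinge, which lets the loop insert after cleavage, and capitals mark the rest of the loop with the cleavage region.
Serpina3f: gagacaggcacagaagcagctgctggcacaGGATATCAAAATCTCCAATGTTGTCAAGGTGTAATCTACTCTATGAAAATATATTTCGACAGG
Serpina3g: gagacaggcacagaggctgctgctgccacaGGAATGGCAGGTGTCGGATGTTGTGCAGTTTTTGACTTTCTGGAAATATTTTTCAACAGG
Serpina3i: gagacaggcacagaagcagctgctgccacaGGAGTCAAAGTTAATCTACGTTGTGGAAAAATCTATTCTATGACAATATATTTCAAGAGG
Serpina3j: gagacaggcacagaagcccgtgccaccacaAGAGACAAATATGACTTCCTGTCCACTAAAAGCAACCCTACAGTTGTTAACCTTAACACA
Serpinb3a: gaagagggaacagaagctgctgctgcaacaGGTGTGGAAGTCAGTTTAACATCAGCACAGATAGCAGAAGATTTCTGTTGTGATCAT
Serpinb3b: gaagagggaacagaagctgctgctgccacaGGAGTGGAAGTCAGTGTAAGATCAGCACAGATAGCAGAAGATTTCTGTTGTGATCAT
Serpinb3d: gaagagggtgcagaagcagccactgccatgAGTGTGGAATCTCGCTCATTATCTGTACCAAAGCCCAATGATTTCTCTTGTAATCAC

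Serpina3i and Serpina3j shared 80.1% of their aligned coding bases, 83.3% of the hinge and 58.3% of the capital part. Serpina3f and Serpina3i were closer, with 92% of coding bases, 96.7% of the hinge and 74.6% of the capital part. Serpinb3a and Serpinb3b were alike throughout, with 93.5%, 96.7% and 94.7%. Serpinb3d shared 89.8% of coding bases with Serpinb3a and 70.2% of the capital part. Identity over the hinge and the capital part was counted as matches over the longer of the paired stretches, a stricter count than that over aligned coding bases.

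In the fit over the whole table, 11 Serpin genes were higher and 12 were lower in KA epidermis at an adjusted p under 0.05, and 3 did not pass. Serpinb3d had too few reads to be tested. In the same fit 91.5% of the 6761 genes tested passed, 44% as higher and 47.5% as lower, so the share of Serpin genes that passed says nothing particular about them. The 7 libraries were split between the groups without overlap for 23 of the 27 members, against 93.5% of all genes tested. The median log2 fold change was 0.59 over the 26 Serpin genes tested and 0.22 over all genes tested. Values below are the authors' normalized reads (raw reads divided by 1 size factor per library), and fold changes are KA over control on the log2 scale. The standard error (SE) was worked back from the test, as the size of the fold change over the square root of the F statistic. It does not show how far a fold change rests on a single library or on few reads. The normalization factors behind the fold changes were computed from listed genes alone, all selected by the authors' test. They differ from the size factors of the printed reads, so a fold change need not equal the ratio of those reads. With the authors' size factors in place of the factors used here, fold changes shift upwards by a median of 0.134, and 6758 of the 6761 genes pass, among them 14 Serpin genes as higher and 12 as lower. Adjusted over the 19407 genes of the authors' own adjustment, 82.5% of the genes pass, among them 10 Serpin genes as higher and 12 as lower.

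**Figure D1:**
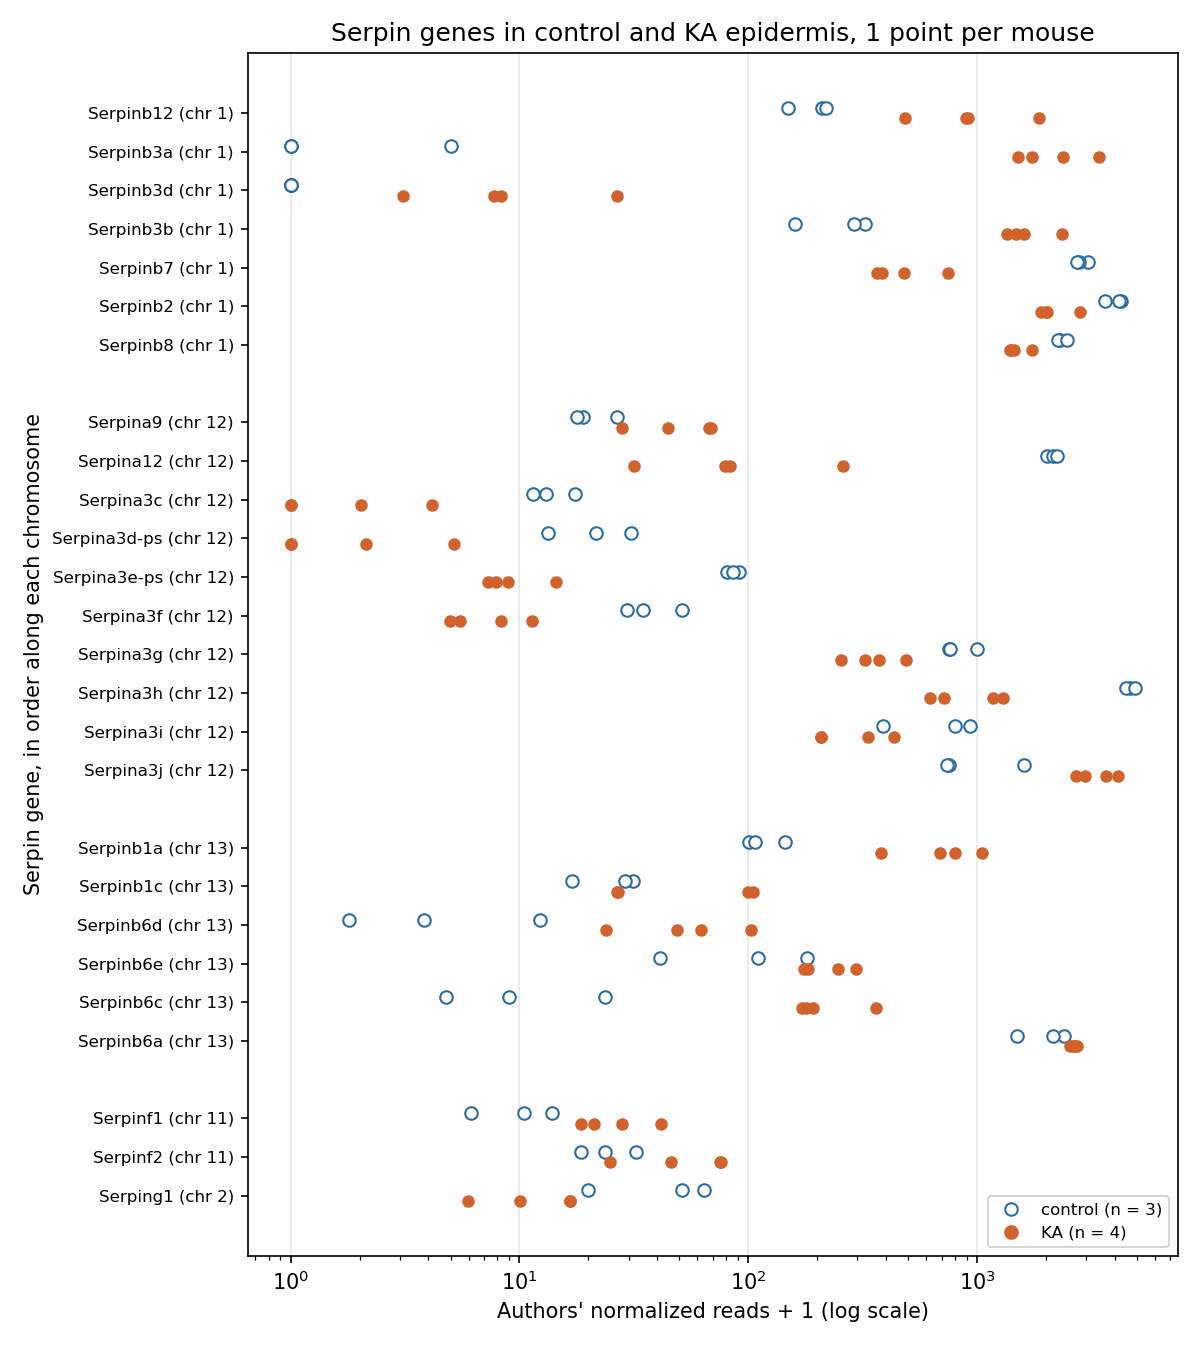
Authors' normalized reads plus 1 (horizontal log axis) of 26 Serpin genes (vertical axis, ordered along each chromosome), with 1 open point per control (n = 3) and 1 filled point per KA mouse (n = 4). The groups overlap in Serpinf2, Serpina3i, Serpinb1c and Serpinb6e and are apart in the other genes drawn.

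Clade A genes were mostly lower, and more clade B genes were higher than lower. Of 10 clade A genes, 2 were higher and 8 lower in KA mice, with a median log2 fold change of -2.52. Of 12 clade B genes tested, 6 were higher, 3 were lower and 3 did not pass, with a median of 1.78. Of the members in other clades, Serpinf1 and Serpinf2 of clade F were higher and Serping1 of clade G was lower. The difference between clades was not tested. Without KA 3 the clade B median was 1.37.

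Clade and place on the genome largely coincide. All 10 clade A genes form the run on chromosome 12 (chr12:103994743-104320725, GRCm38), and clade B is divided between chromosome 1 (chr1:106934449-107610484, 7 genes) and chromosome 13 (chr13:32842092-34002794, 6 genes). The run on chromosome 1 held 3 genes that were higher and 3 that were lower, with a median of 0.77 over the 6 tested. Without KA 3 that median was 0.49. All 7 genes separated the groups, against 93.5% of all genes tested, and Serpinb3d did so on few reads. On chromosome 13 all 6 genes had a higher mean in KA mice and 3 of them passed, with a median of 1.87.

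**Figure D2:**
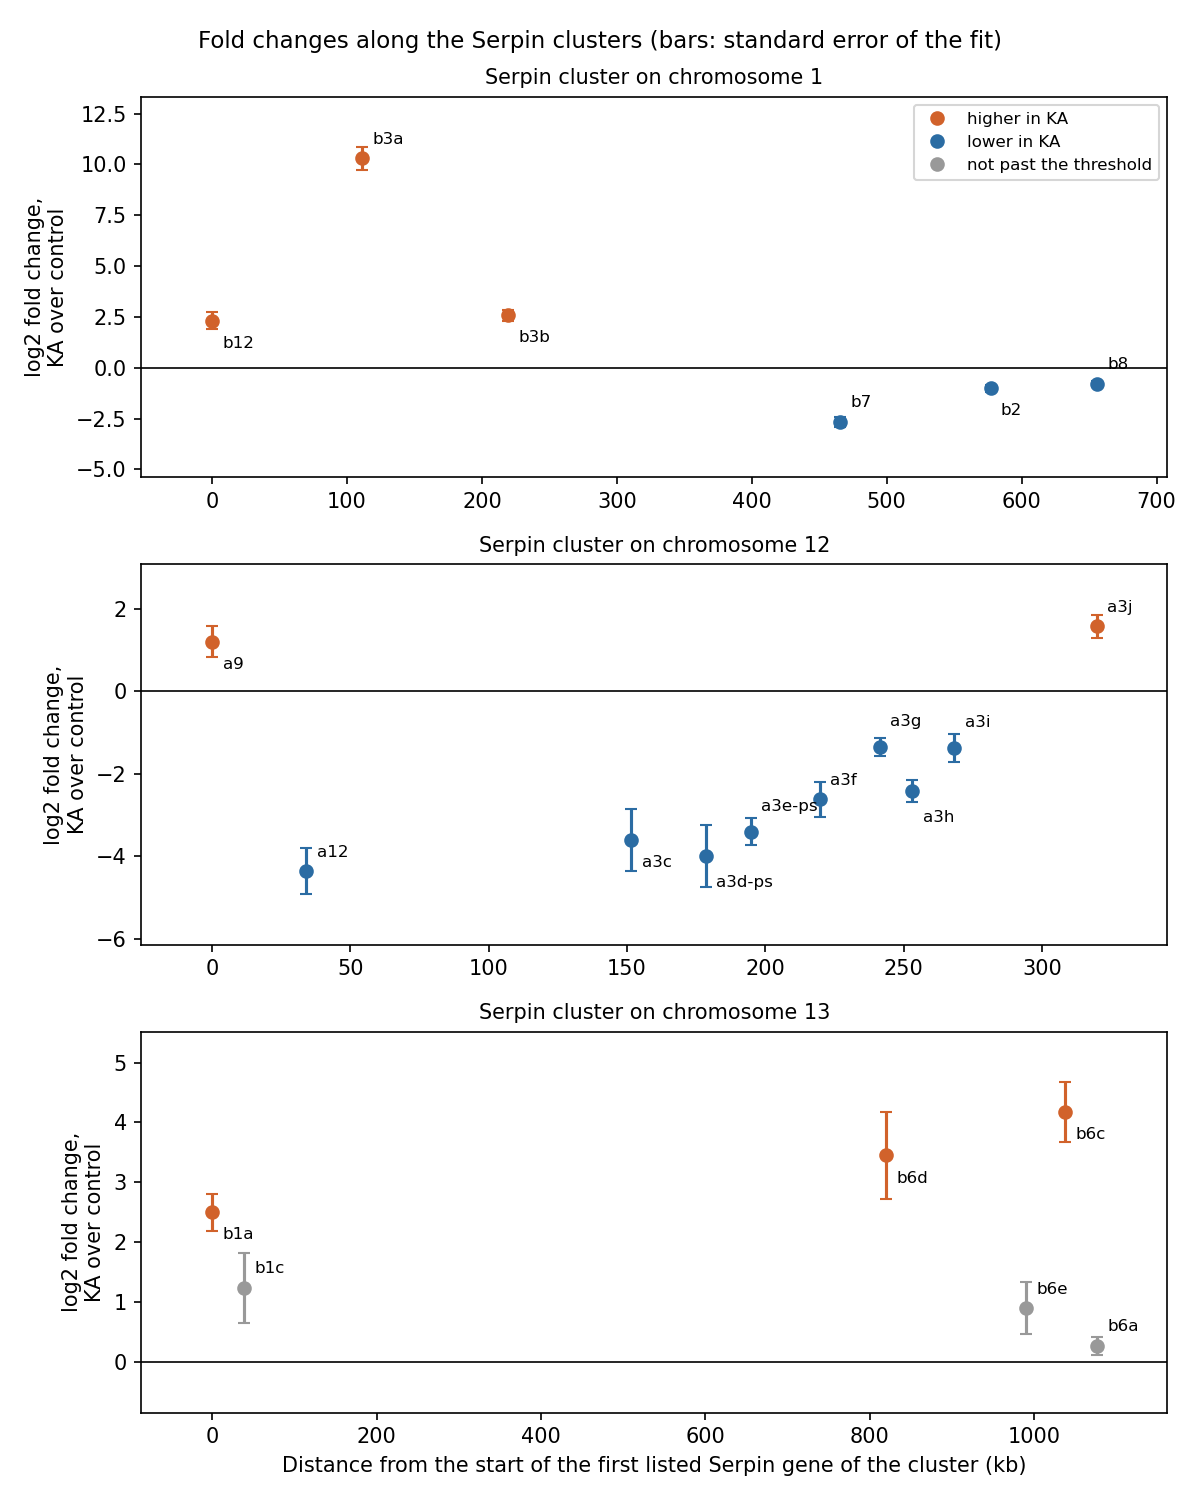
Log2 fold change of KA over control (vertical axis, bars are the SE worked back from the test) against distance in kilobases from the first listed Serpin gene of each run (horizontal axis). On chromosome 1 the listed genes near the start were higher and Serpinb7, Serpinb2 and Serpinb8 lower, and on chromosome 12 only the outermost listed genes, Serpina9 and Serpina3j, were higher. Serpinb3d was not tested and is not drawn.

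On chromosome 1 the pattern followed gene order among the listed genes, 7 of the 12 Serpin genes annotated in the run. The first 4 listed genes along the chromosome, Serpinb12, Serpinb3a, Serpinb3d and Serpinb3b, had higher means in KA mice. The last 3, Serpinb7, Serpinb2 and Serpinb8, were lower. This order was not tested. The Serpinb3 genes are the mouse relatives of the human squamous cell carcinoma antigens, which inhibit lysosomal cysteine proteases and some serine proteases. Serpinb3a (ENSMUSG00000044594, chr1:107045587-107052303) had 0, 0 and 4.01 normalized reads in the controls, given here and below in the order 1, 2, 3, and 3407, 1734, 1505 and 2379 in the KA mice, in the order 1, 2, 3, 4. It had nearly no reads in any control and, at 1383 normalized reads per kilobase, the highest mean level of the run in KA mice. The log2 fold change was 10.29 (SE 0.57, adjusted p = 1.94e-06), whose size rests on the few reads of control 3. Without control 3 the fitted value was 14.06. With no reads in controls 1 and 2, that value depends on the small prior count added by the fit.

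Serpinb3b (ENSMUSG00000073602, chr1:107153940-107278361) was already read in controls, at 322, 288 and 159, and stood at 2356, 1345, 1481 and 1599 in KA mice. Its log2 fold change was 2.58 (SE 0.28, adjusted p = 5.7e-05), with every KA mouse above every control. Serpinb3d (ENSMUSG00000058017, chr1:107078167-107083506) was listed at 0 in all 3 controls and at 25.7, 6.76, 2.09 and 7.27 in KA mice. Against a floor of 3 reads in each control its mean was at least 3.76-fold higher. The reads of this gene are few, and without a filter on low counts its adjusted p was 0.00596.

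The assignment of reads among these copies is limited. Of 1521 windows of 100 bases along the Serpinb3a transcript, 100 (6.57%) also occur in Gm8080, a pseudogene beside it (chr1:107020137-107025325). Gm8080, named after its values were seen, had 2.84, 2.06 and 4.81 normalized reads in controls and 1008, 617, 451 and 886 in KA mice. For Serpinb3b, 8 windows (0.515%) occur in Serpinb3c. Read length and the treatment of reads with several matches are not given in the sources used here.

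The sequences before the RefSeq start sites of Serpinb3a and Serpinb3b were alike over the bases that aligned. Whether this bears on their levels was not tested. The window of Serpinb3b lies inside the span given above for the gene, which extends further upstream. The 250 bases before the start site, from RefSeq on GRCm38.p6, are shown 5′ to 3′ along the minus strand for Serpinb3a (chr1:107052304-107052553) and Serpinb3b (chr1:107161115-107161364).
Serpinb3a: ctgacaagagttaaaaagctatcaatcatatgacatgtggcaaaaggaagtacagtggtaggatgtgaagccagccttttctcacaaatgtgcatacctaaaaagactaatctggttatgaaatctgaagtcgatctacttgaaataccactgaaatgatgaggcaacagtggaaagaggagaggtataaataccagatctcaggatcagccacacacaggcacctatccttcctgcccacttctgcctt
Serpinb3b: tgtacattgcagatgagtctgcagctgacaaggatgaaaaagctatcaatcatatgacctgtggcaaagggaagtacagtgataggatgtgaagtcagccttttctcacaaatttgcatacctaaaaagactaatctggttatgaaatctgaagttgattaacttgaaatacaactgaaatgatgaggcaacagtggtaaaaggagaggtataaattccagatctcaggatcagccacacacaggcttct
They matched at 92.5% of 226 aligned bases. The window of Serpinb3d matched that of Serpinb3a at 71.8% of 163 aligned bases. No letters are in capitals because neither printed window holds a motif searched here.

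Serpinb12 (ENSMUSG00000059956, chr1:106934449-106957080), an inhibitor of trypsin-like proteases in epithelia, had 208, 218 and 148 normalized reads in controls and 913, 895, 1874 and 482 in KA mice. KA 3 was the highest and KA 4 the lowest, and all 4 lay above the controls. Its log2 fold change was 2.32 (SE 0.43, adjusted p = 0.00136).

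The 3 lower genes of this run include epidermal serpins tied to skin disease. Serpinb7 is the gene whose loss in people causes Nagashima-type palmoplantar keratosis. Serpinb7 (ENSMUSG00000067001, chr1:107399655-107452689) had 3041, 2789 and 2726 normalized reads in controls and 382, 363, 746 and 480 in KA mice. Every KA mouse lay far below every control, and the log2 fold change was -2.66 (SE 0.24, adjusted p = 2.67e-05). Serpinb2 encodes plasminogen activator inhibitor 2, which inhibits urokinase. Serpinb2 (ENSMUSG00000062345, chr1:107511423-107535478) had 3641, 4270 and 4161 in controls and 1904, 2009, 2012 and 2830 in KA mice, with a log2 fold change of -1.01 (SE 0.16, adjusted p = 0.000333). KA 4 stood above the other KA mice and below all controls. Serpinb2 shares 12.4% of its exonic bases with Serpinb10 on the same strand.

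Serpinb8, an inhibitor of furin whose loss in people causes an exfoliative ichthyosis, had a fold change nearer to 0. Serpinb8 (ENSMUSG00000026315, chr1:107590006-107610484) had 2306, 2249 and 2463 normalized reads in controls and 1414, 1395, 1732 and 1445 in KA mice. The groups did not overlap, and the log2 fold change was -0.78 (SE 0.12, adjusted p = 0.000329).

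Added over the run, the level did not separate the groups, while its make-up did. The summed normalized reads per kilobase of gene length of the 7 genes were 3887 ± 71.8 (SD, n = 3) in controls and 4308 ± 668 (SD, n = 4) in KA mice, and the ranges overlapped (3834 to 3969 and 3555 to 5172). Serpinb7 made up 37.5% ± 2.41 (SD, n = 3) of that sum in controls and 5.95% ± 2.3 (SD, n = 4) in KA mice. Serpinb2 went from 44.1% to 22%. Serpinb3a went from 0.0214% ± 0.037 to 31.5% ± 7.56, and Serpinb3b from 3.9% ± 1.29 to 23.1% ± 2.66. These shares cover listed genes only, 7 of the 12 Serpin genes annotated in the run.

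**Figure D3:**
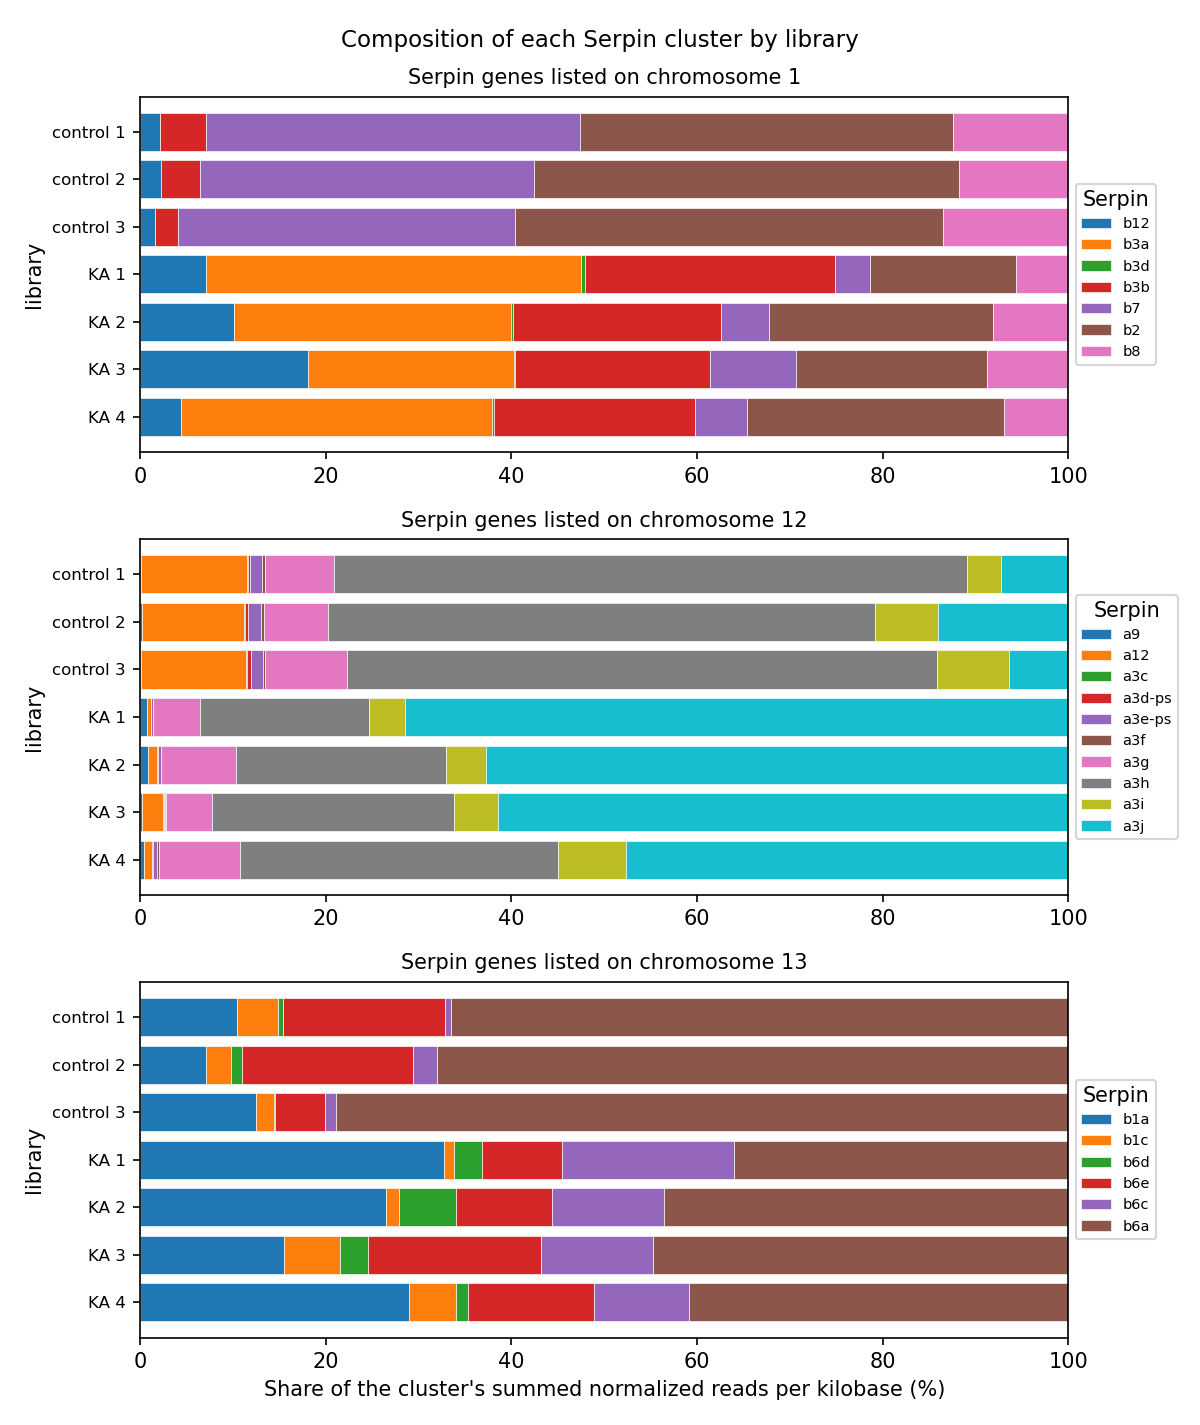
Share in percent (horizontal axis) that each listed Serpin gene takes of the summed normalized reads per kilobase of its run, with 1 bar per library (vertical axis: 3 controls, 4 KA). The share of Serpinb7 on chromosome 1 fell from 37.5% to 5.95% on average, that of Serpina3h on chromosome 12 from 63.6% to 25.3%, and that of Serpinb6a on chromosome 13 from 71.2% to 41.3%.

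On chromosome 12, 8 of the 10 genes were lower. Serpina12 encodes vaspin, a secreted inhibitor of the skin protease kallikrein 7. Serpina12 (ENSMUSG00000041567, chr12:104028769-104044443) had 2021, 2152 and 2246 normalized reads in controls and 30.7, 82.2, 259 and 77.9 in KA mice. KA 3 kept the most, and its reads were still far below every control. The log2 fold change was -4.37 (SE 0.56, adjusted p = 0.000217), the lowest of the 26 members tested. Without KA 3 it was -5.22.

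The Serpina3 genes, relatives of human alpha-1-antichymotrypsin, made up 8 of the 10, and 7 of these were lower. Serpina3h (ENSMUSG00000041449, chr12:104247905-104253669) is annotated as a pseudogene and had the highest level per kilobase of all members in controls, 3275 ± 150 (SD, n = 3) normalized reads per kilobase. Its normalized reads were 4682, 4489 and 4918 in controls and 620, 718, 1173 and 1304 in KA mice. All KA mice lay below the controls, with a log2 fold change of -2.42 (SE 0.26, adjusted p = 5.69e-05).

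Serpina3g encodes an intracellular inhibitor of cysteine cathepsins known from leukocytes. Serpina3g (ENSMUSG00000041481, chr12:104236245-104241939) had 752, 761 and 1000 normalized reads in controls and 252, 372, 323 and 489 in KA mice, and the log2 fold change was -1.35 (SE 0.22, adjusted p = 0.000395). Serpina3i (ENSMUSG00000079014, chr12:104263122-104269372) had 388, 797 and 930 in controls and 208, 206, 334 and 432 in KA mice. KA 4 exceeded control 1, so the groups overlapped, and the log2 fold change was -1.38 (SE 0.34, adjusted p = 0.00402). In females alone it was -0.86 (adjusted p = 0.0548).

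The other lower members of the group had fewer reads. Serpina3f (ENSMUSG00000066363, chr12:104214544-104221129) had 28.4, 50.5 and 33.7 normalized reads in controls and 3.96, 4.51, 7.31 and 10.4 in KA mice, with a log2 fold change of -2.62 (SE 0.43, adjusted p = 0.000426). The pseudogene Serpina3e-ps (ENSMUSG00000091553, chr12:104189517-104192926) had 79.5, 89.7 and 85 in controls and 6.92, 7.89, 6.27 and 13.5 in KA mice, with a log2 fold change of -3.41 (SE 0.33, adjusted p = 2.88e-05). For both genes each KA mouse was far under each control. The pseudogene Serpina3d-ps (ENSMUSG00000091573, chr12:104173303-104178296) had 12.3, 20.6 and 29.7 in controls and 0, 1.13, 0 and 4.15 in KA mice, with a log2 fold change of -4.0 (SE 0.75, adjusted p = 0.000949). Without KA 4 it was -5.59. Serpina3c (ENSMUSG00000066361, chr12:104146382-104153870) had 10.4, 16.5 and 12 in controls and 0, 0, 3.13 and 1.04 in KA mice, at least 4.12-fold lower against a floor of 3 reads per library (adjusted p = 0.00158). Both of the last genes rest on few reads.

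Serpina3j stood opposite to its neighbours. Serpina3j (ENSMUSG00000079013, chr12:104314553-104320725) had 752, 1604 and 739 normalized reads in controls and 3667, 2976, 4137 and 2719 in KA mice. Control 2, the male control, was the highest control, and every KA mouse lay above it. The log2 fold change was 1.58 (SE 0.28, adjusted p = 0.000872). None of the 2056 windows of 100 bases along its transcript occur in another gene, and the same holds for the lower genes Serpina3c and Serpina3d-ps. Of the windows of Serpina3e-ps, Serpina3f, Serpina3g, Serpina3h and Serpina3i, between 2.33% and 5.05% occur in another gene.

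The stretches before the start sites of Serpina3i and Serpina3j aligned over few bases. The 250 bases before the start site, on the plus strand, are shown for Serpina3i (chr12:104262872-104263121), which fell, and Serpina3j (chr12:104314320-104314569), which rose. Capitals mark a match to the STAT motif TTCNNNGAA.
Serpina3i: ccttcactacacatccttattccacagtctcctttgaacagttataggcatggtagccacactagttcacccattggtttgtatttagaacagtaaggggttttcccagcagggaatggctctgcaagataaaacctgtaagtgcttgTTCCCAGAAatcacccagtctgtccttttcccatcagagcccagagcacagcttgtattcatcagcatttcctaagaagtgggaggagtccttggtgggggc
Serpina3j: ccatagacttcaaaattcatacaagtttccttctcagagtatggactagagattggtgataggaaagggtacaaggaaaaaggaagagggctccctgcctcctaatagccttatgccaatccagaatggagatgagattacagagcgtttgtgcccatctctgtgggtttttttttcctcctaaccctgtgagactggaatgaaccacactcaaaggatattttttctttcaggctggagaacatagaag
Of the bases of these windows 55 aligned, at 80% identity. With Serpina3g, a lower gene, the window of Serpina3j aligned over 112 bases at 77.7%. Serpina3i and Serpina3f aligned over 210 bases at 85.7%. The STAT motif was found before Serpina3f, Serpina3g and Serpina3i and was not found in the windows of Serpina3c and Serpina3j.

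A search of the 250 bases before each RefSeq start site covered 26 windows of 20 members. Some windows overlap within a gene, and some lie inside the listed span of their gene. On either strand the AP-1 motif TGANTCA was in 5 windows (19.2%), against 6.75% of 32851 windows of all genes. The STAT motif was in 6 (23.1%), against 7.02%, and the C/EBP motif TTGCNNAA in 7 (26.9%), against 9.56%. The windows with the AP-1 motif belonged to Serpinb12, Serpinb2, Serpinb7 and Serpinb8 on chromosome 1, of which 1 was higher and 3 were lower. These matches describe letters, and no binding was measured.

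Serpina9 lies at the other end of the run and is known from germinal centre B cells. Serpina9 (ENSMUSG00000058260, chr12:103994743-104013755) had 18, 25.8 and 16.8 normalized reads in controls and 66.3, 67.6, 27.2 and 43.6 in KA mice. KA 3 lay just above control 2, and the log2 fold change was 1.20 (SE 0.38, adjusted p = 0.0122). Among females alone, 2 against 2, its adjusted p was 0.105.

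In sum over the run, the level was 5161 ± 326 (SD, n = 3) normalized reads per kilobase in controls and 2590 ± 404 (SD, n = 4) in KA mice, with ranges of 4789 to 5392 and 2201 to 3129 that did not overlap. Serpina3h supplied 63.6% ± 4.57 of it in controls and 25.3% ± 6.82 in KA mice. Serpina3j supplied 9.23% ± 4.19 in controls and 60.8% ± 9.86 in KA mice. The share of Serpina12 went from 11.2% ± 0.225 to 1.1% ± 0.811. This sum and its shares cover listed genes only, 10 of the 28 Serpin genes annotated in the run.

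On chromosome 13 lie the Serpinb1 and Serpinb6 genes, some of which encode inhibitors of proteases of neutrophil granules. Serpinb1a encodes the mouse counterpart of leukocyte elastase inhibitor. Serpinb1a (ENSMUSG00000044734, chr13:32842092-32851185) had 99.4, 106 and 144 normalized reads in controls and 1055, 687, 378 and 804 in KA mice. All 4 KA mice were above the controls, KA 3 the least, and the log2 fold change was 2.50 (SE 0.31, adjusted p = 0.000112). Serpinb1c (ENSMUSG00000079049, chr13:32881434-32898211) had 30.3, 27.8 and 16 in controls and 25.7, 25.9, 103 and 98.6 in KA mice. KA 1 and KA 2 lay within the controls and KA 3 and KA 4 well above them, and the gene did not pass (log2 fold change 1.24, SE 0.58, adjusted p = 0.0618). It passed without KA 1 (1.53, adjusted p = 0.0175) and without KA 2 (1.51, adjusted p = 0.0249). It also passed with the authors' size factors (1.37, adjusted p = 0.0344).

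Serpinb6c and Serpinb6d went from low levels to clear ones. Serpinb6c (ENSMUSG00000052180, chr13:33879816-33905708) had 3.79, 22.7 and 8.02 normalized reads in controls and 360, 190, 178 and 170 in KA mice, with a log2 fold change of 4.17 (SE 0.50, adjusted p = 0.000101). KA 1 stood above the other KA mice. Serpinb6d (ENSMUSG00000047889, chr13:33661405-33671581) had 2.84, 11.3 and 0.802 in controls and 61.3, 101, 48 and 22.8 in KA mice, with a log2 fold change of 3.45 (SE 0.73, adjusted p = 0.0018). Control 2 was the highest control for both genes, and without it the log2 fold changes were 5.05 and 4.82. The groups did not overlap for either gene.

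Serpinb6a and Serpinb6e did not pass. Serpinb6a, known as an inhibitor of cathepsin G, had the highest level of this run. Serpinb6a (ENSMUSG00000060147, chr13:33917918-34002794) had 1494, 2391 and 2138 normalized reads in controls and 2728, 2654, 2561 and 2658 in KA mice. The groups did not overlap, yet the log2 fold change was 0.27 (SE 0.15, adjusted p = 0.0975), and without control 2 it was 0.41 (adjusted p = 0.0308). With the authors' size factors it was 0.40 (adjusted p = 0.0252). Its exons overlap those of Nqo2 on the opposite strand over 14.1% of its exonic bases, and whether reads were counted by strand is not given in the sources used here. Serpinb6e (ENSMUSG00000069248, chr13:33832345-33843408) had 109, 179 and 40.1 in controls and 181, 174, 294 and 245 in KA mice. KA 2 lay below control 2, and the log2 fold change was 0.90 (SE 0.43, adjusted p = 0.0658). Without control 2 it was 1.45 (adjusted p = 0.0121), and without control 3 it was 0.54. With the authors' size factors it was 1.04 (adjusted p = 0.0316).

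Summed over the run, the 6 genes had 521.9 ± 118 (SD, n = 3) normalized reads per kilobase in controls and 1197 ± 148 (SD, n = 4) in KA mice, with ranges of 415.5 to 649.3 and 1058 to 1400. The share of Serpinb6a went from 71.2% ± 6.76 to 41.3% ± 3.87, that of Serpinb1a from 10% ± 2.73 to 25.9% ± 7.4, and that of Serpinb6c from 1.44% ± 0.961 to 13.2% ± 3.63. Here too only listed genes are covered, 6 of the 16 Serpin genes annotated in the run.

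Serping1, Serpinf1 and Serpinf2, which lie outside the runs on chromosomes 1, 12 and 13, encode secreted proteins. Serping1 encodes the C1 inhibitor of complement and of the contact system. Serping1 (ENSMUSG00000023224, chr2:84765387-84775444) had 18.9, 62.9 and 50.5 in controls and 4.95, 9.01, 15.7 and 15.6 in KA mice. Control 1 lay close to the KA mice, and the log2 fold change was -2.07 (SE 0.50, adjusted p = 0.0034). In females alone it was -1.24 (adjusted p = 0.0694).

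Serpinf1 and Serpinf2 are neighbours on chromosome 11. Serpinf1 encodes pigment epithelium-derived factor, which inhibits no protease and restrains vessel growth. Serpinf1 (ENSMUSG00000000753, chr11:75409769-75422701) had 9.47, 5.16 and 12.8 normalized reads in controls and 40.6, 20.3, 27.2 and 17.6 in KA mice, with a log2 fold change of 1.36 (SE 0.44, adjusted p = 0.014). Without control 2 its adjusted p was 0.061, and in females alone the log2 fold change was 0.90 (adjusted p = 0.139). Serpinf2 encodes alpha-2-antiplasmin, the main inhibitor of plasmin. Serpinf2 (ENSMUSG00000038224, chr11:75431732-75439591) had 22.7, 17.5 and 31.3 in controls and 75.2, 74.4, 44.9 and 23.9 in KA mice. KA 4 lay within the controls, and the log2 fold change was 1.04 (SE 0.42, adjusted p = 0.0348). It did not pass without control 1 (adjusted p = 0.079), control 2 (0.112), KA 1 (0.0752) or KA 2 (0.0874). It also did not pass with limma-voom (adjusted p = 0.0714) or with sex as a covariate (0.0761), and in females alone the log2 fold change was 0.26 (adjusted p = 0.612). Both genes rest on few reads.

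Per kilobase of gene length, the order of the members changed between groups. In controls the highest were Serpina3h at 3275 ± 150 normalized reads per kilobase, Serpinb2 at 1713 ± 143 and Serpinb7 at 1457 ± 85.2 (SD, n = 3). Serpinb2 and Serpinb7 were followed by Serpina12 at 579.9 ± 30.6, Serpinb8 at 487.9 ± 23 and Serpina3j at 478.8 ± 230, of which the last pair did not differ beyond their spread. In KA mice the highest were Serpina3j at 1566, Serpinb3a at 1383, Serpinb3b at 1004 and Serpinb2 at 931.8 normalized reads per kilobase, and neighbours in this order lay within the spread of the 4 mice.

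The proteases that serpins act on, and other inhibitors, were read from the same fit. Of 13 serine proteases of neutrophils, mast cells and cytotoxic lymphocytes, 1 was in the table, Gzmb (granzyme B), with 9.406 ± 5.5 (SD, n = 3) normalized reads in controls and 32.48 ± 3.58 (SD, n = 4) in KA mice and a log2 fold change of 1.66 (SE 0.42, adjusted p = 0.0042). The elastase, proteinase 3 and cathepsin G genes, the usual targets of Serpinb1a and Serpinb6a, were not analysed here.

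Kallikreins, the trypsin-like and chymotrypsin-like proteases of corneocyte shedding, were mostly higher. Of 11 kallikrein genes, 8 were in the table, and 6 were higher, 1 lower and 1 not past the threshold. Of all genes tested 44% passed as higher. Among the 6, Klk1, Klk12 and Klk14 rest on few reads, with means of 19.9, 29.4 and 11.9 normalized reads in KA mice. Klk7 was not analysed here. Klk6 went from 37.29 ± 10.9 to 1457 ± 325 normalized reads (log2 fold change 5.15, SE 0.27, adjusted p = 1.3e-06). Klk13 went from 15.89 ± 11.7 to 700.6 ± 345 and Klk10 from 630.4 ± 35.8 to 1749 ± 419. The lower gene was Klk5, a kallikrein that activates others, at 2756 ± 247 and 1657 ± 720.

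Of 11 cysteine cathepsins and inflammatory or initiator caspases, 8 were in the table, 6 higher and 2 lower. Ctsz (cathepsin Z) had a log2 fold change of 1.67 (SE 0.14) and Casp4 of 1.66 (SE 0.21), and Ctsl (cathepsin L) of -1.35 (SE 0.18). Of 19 genes of plasminogen activation and its receptors, 10 were in the table, 5 higher, 4 lower and 1 not past the threshold. The 3 with the smallest adjusted p were F3 (tissue factor) at -1.61 (SE 0.20), Vldlr, a receptor that takes up serpin-protease complexes, at 1.51 (SE 0.23), and F2r (a thrombin receptor) at -1.0 (SE 0.16), all as log2 fold changes.

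Among inhibitors of other families, 5 of 13 were in the table, 3 higher and 2 lower. Spink5, whose product LEKTI holds kallikreins in check, had a log2 fold change of -1.53 (SE 0.15). Cstb (cystatin B), an inhibitor of cysteine cathepsins, was at 1.64 (SE 0.19) and Slpi, an inhibitor of neutrophil elastase, at 2.81 (SE 0.53). Of 15 collagen genes and folding partners of the serpin chaperone Serpinh1, 5 were in the table, 4 higher and 1 lower. P4hb was at 0.86 (SE 0.14) and Ppib at 0.51 (SE 0.11), and P4ha3 was listed at 0 in all controls and was at least 8.44-fold higher against the floor of 3 reads per library. Serpinh1 itself was not analysed here. The shares that passed lie near the background of 91.5%.

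**Figure D4:**
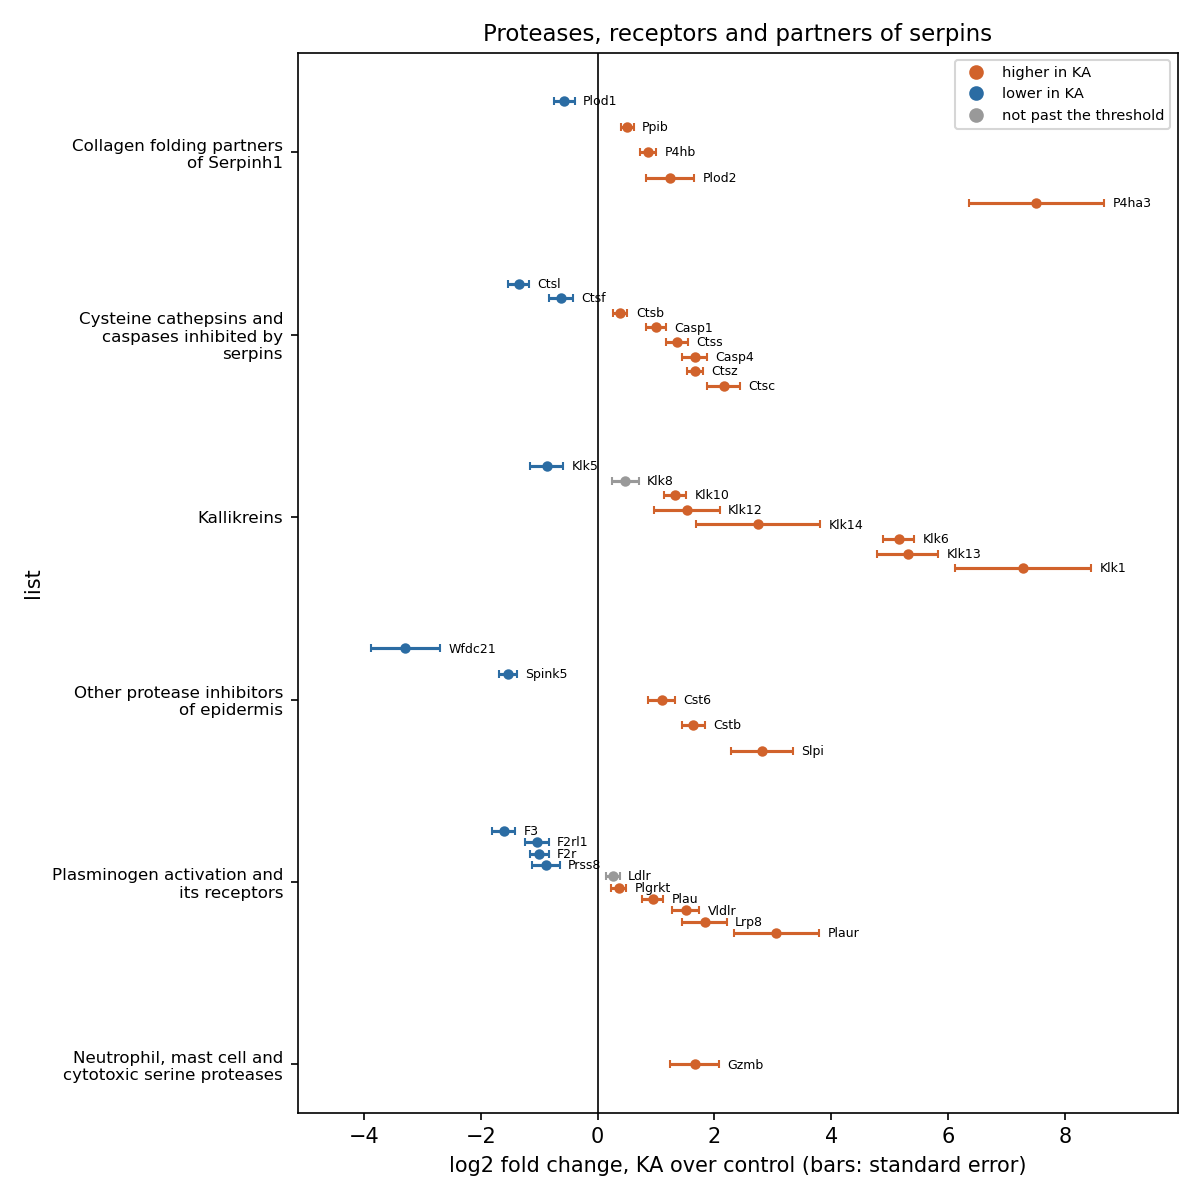
Log2 fold change of KA over control (horizontal axis, bars are the SE worked back from the test) for the listed protease, receptor, inhibitor and folding genes, grouped by list (vertical axis). Kallikreins lie mostly on the higher side with Klk5 on the lower side, and the values of P4ha3 and Klk1 depend on the prior count of the fit because no control held a read.

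Markers of keratinocytes and of other cell types also differed between the groups. Of all genes tested 91.5% passed, 44% as higher and 47.5% as lower, and the counts of markers below stand beside these shares. Keratinocyte markers were abundant in all libraries, with 5 of 9 in the table and a summed level of 439208 to 522931 normalized reads in controls and 962271 to 1048580 in KA mice. Of these 5, 4 were higher and Lor (loricrin) was lower, with a log2 fold change of -1.97. Of 9 neutrophil markers, 3 were in the table (Cxcr2, S100a8 and S100a9), at a sum of 12.3 to 20.9 in controls and 10961 to 65082 in KA mice. S100a8 and S100a9 are also made by stressed keratinocytes, and Cxcr2 alone had 0, 1.03 and 4.01 normalized reads in controls and 386, 220, 220 and 289 in KA mice. Langerhans cell markers, 4 of 4 in the table, summed to 18177 to 25308 and 35141 to 51419, and macrophage and dendritic cell markers, 6 of 7, to 919 to 1316 and 1872 to 2148. All 4 Langerhans markers were higher, while of the macrophage and dendritic cell markers 4 were higher and 2 lower, Adgre1 at -1.56 and Cd68 at -0.78. Sebocyte markers, 6 of 6, summed to 22658 to 34249 in controls and 44776 to 59652 in KA mice, with 5 higher and 1 not past the threshold. Hair follicle markers, 5 of 6, split into 2 higher, 2 lower and 1 not past the threshold, with Krt17 at 1.46 and Krt15 at -2.25. Of endothelial markers, 1 of 5 was in the table, Pecam1 at 1.4, and of melanocyte markers 1 of 5, Dct at -0.93. Markers of mast cells, fibroblasts and adipocytes were not analysed here. T cell markers, 6 of 7, summed to 1264 to 1645 in controls and 939 to 1018 in KA mice, with 2 higher, 3 lower and 1 not past the threshold. Serpinb1a, the Serpinb6 genes, Serpina3g and Gzmb are also expressed by leukocytes, and the part of these and the other cell types in the values of the Serpin genes was not tested. In such bulk samples fewer cells of a type and less RNA per cell cannot be told apart, nor can more cells and more RNA.

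Sex and the run of animal numbers are tied to each other among the KA mice. KA 1 and KA 2 are the males and carry the lower animal numbers, and KA 3 and KA 4 are the females and carry the higher ones, so the sexes and the runs cannot be told apart. Within males (1 control, 2 KA) both KA mice lay beyond the control in the direction of the main result for 23 of 23 members that passed, against 99.8% of all genes that passed. In the higher run (1 control, 2 KA, all female) this held for 22 of 23, with Serpinf2 the exception, against 98.1% of all genes that passed. The members had passed in a fit of these same libraries, so these counts are not independent of it. In the lower run alone, with 2 controls and 2 KA mice, 11 members were higher and 12 lower, where 86.9% of all genes tested passed. In females alone 10 were higher and 10 lower, where 61.9% of all genes passed.

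The effect of genotype was then compared between the sexes, a comparison added after the values of Serpinb1c had been seen. No member passed at an adjusted p under 0.05, where 0.0444% of all genes did, in a model with 3 residual degrees of freedom and a single male control. At an unadjusted p under 0.05, 9 of 26 members (34.6%) differed, against 3.21% of all genes. The effect was more negative in males for 8 of the 9 and for 21 of all 26 members, and this share was not counted over all genes. These 9 include neighbouring duplicates and are not independent. Serpina3j had the smallest p (difference of log2 fold changes, males minus females, -1.22, SE 0.32, unadjusted p = 0.00301, adjusted p = 0.845), followed by Serpina3h at -0.86 (SE 0.25, unadjusted p = 0.00597, adjusted p = 0.984). The direction of both genes was the same in each sex. Control 2, the only male control, enters every one of these differences.

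The libraries held 9590718 to 12761458 reads in the listed genes, a sum that is not their full depth. Size factors ran from 0.8876 to 1.247, and no library stood apart in either. The labels name separate mice, and replicate libraries differed by more than sampling noise in every pair (chi-square over degrees of freedom from 20.7 to 111.3).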

How the data were processed

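Counts were taken from 1 table of all 7 libraries. The submitters' processing notes name fastp, STAR 2.6.1d, featureCounts 1.5.0-p3, DESeq2 1.40.2 and mm10, with no role or order. Per the file headers and its values, the table holds raw read counts per gene. The authors' normalized reads are a signal, each count over the size factor of its library. Per the file headers, the authors also deposited a log2 fold change with its error, a test score, and raw and adjusted p-values. No listed adjusted p-value of theirs exceeds 0.04995, and their adjustment covered 19407 genes. Columns of other samples numbered 0.

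Counts as deposited were fitted with edgeR 4.0.16 in R 4.3.3 (filterByExpr by group, which left out 330 genes and kept 6761, TMM factors, robust glmQLFit and glmQLFTest), with Benjamini-Hochberg adjustment over all genes tested and a threshold of 0.05. Adjusted p-values in the text come from edgeR unless another source is named. The code was tested on simulated data. Serpin genes of 1 run have starts at most 1 Mb from the next. Identifiers and positions of 27 of 27 members were identical in GENCODE M21. The rule for naming genes gave every library's value for members that passed and averaged 20 or more normalized reads in a group, and the 3 smallest adjusted p-values of each other list. The remaining members and Klk5 were added outside it. Counts over all members include 1 member that is not reported here. The members and lists were chosen with earlier results of these data known.

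A comparison of loops between proteins had been planned. Protein sequences were not used here, so coding DNA of GENCODE M21 transcripts took their place, and the limits of the loop and the measure of identity were set after the sequences had been read. Promoters came from RefSeq (GRCm38.p6). Identity between them is over the aligned bases of a global alignment without penalty for gaps at the ends, and unrelated windows were not aligned for comparison.

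Alternatives were other normalization factors, filters, thresholds and tests (DESeq2 1.42.0, limma-voom with limma 3.58.1), covariates for sex and run of animal numbers, a block by sample number, the authors' adjusted p-values, adjustment over the authors' number of genes, and each replicate left out. Separate fits of females and of mice with lower animal numbers, and the comparison between sexes, were chosen after seeing the data.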

Additional observations from a re-analysis of the deposited data

Results flagged for a closer look

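In 3 of the 27 Serpin genes, 1 KA mouse stood apart from the other 3, where the gap to its nearest neighbour was set against the range of the group and passed Dixon's limit. Chance gives about 1 in 20 such gaps, or 1.35 among 27 genes. In Serpinb2, KA 4 was highest, with a gap of 0.884 of the range. In Serpinb6c, KA 1 was highest, with a gap of 0.894. In Serpinb8, KA 3 was highest, with a gap of 0.851. All 3 mice lay on the same side of the controls as the rest of their group.

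In Serpinb1c the KA mice of each sex lay on opposite sides of their controls. Both male KA mice, at 25.7 and 25.9 normalized reads, lay below the male control at 27.8, and both female KA mice, at 103 and 98.6, lay above the female controls at 30.3 and 16. The difference of log2 fold changes, males minus females, was -2.30 (SE 0.70, unadjusted p = 0.00748 and adjusted p = 1 by edgeR's quasi-likelihood test), so it failed the correction over all genes. The male KA mice are also the KA mice with lower animal numbers, so sex and run cannot be told apart.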

How the results depend on the processing

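Over 23 alternative settings, the fold change or call of a Serpin gene was compared with the main result 597 times. It stayed on the same side in 563, lost the call in 17, gained it in 16 and reversed in 1, Serpinb1c in the lower run of animal numbers alone, at -0.32 (adjusted p = 0.507). Of the 23 members past the threshold, 17 kept their call under every setting that tested them, and 18 under every such setting that kept the threshold. Serpina3c is counted among these, although the filter on a mean of at least 10 counts left it untested. Under that filter 11 Serpin genes were lower. Calls were lost for Serpinb8 (only where a log2 fold change past 1 was asked), Serpinf1, Serpinf2, Serpina9, and, in females alone, Serpina3i and Serping1. Calls were gained for Serpinb1c, Serpinb6a and Serpinb6e. Asking also for a log2 fold change of 1 or more in either direction, 2806 genes of the table passed instead of 6188. Leaving out 1 replicate gave 5792 to 6132 genes, 10 to 11 Serpin genes higher and 12 lower, and a clade B median of 1.37 to 1.95. In the lower run alone the median was -3.12 for clade A and for chromosome 12, 1.13 for clade B and 1.63 for chromosome 13, and in females alone it was 2.11 for clade B and for chromosome 13. Without the filter, which adds Serpinb3d, it was 2.32 for clade B and for chromosome 1. The causes of the other shifts were not tested. The authors' size factors moved the median of all genes by 0.134, and 52.5% of calls were then higher, against 48.1%.

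With the sample number as a replicate block, 5749 genes passed, with 11 Serpin genes higher and 12 lower, and the median for chromosome 13 was 1.66. Mice of the same number did not deviate together (r of -0.204, 0.149 and -0.094), but so few values cannot exclude a pairing. KA 4 has no control of its number. The labels also carry letters, with C shared by control 3, KA 3 and KA 4, and a block by letter was not fitted.

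All calls are conditional on the authors' selection of genes. Low reads limit Serpinb3d, Serpina3c, Serpina3d-ps, Serpinf1 and Serpinf2.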
